A study of Mus musculus with 4 samples.

Results

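The genes described here encode the proteins that act after or beside the TET dioxygenases in active DNA demethylation: the DNA glycosylases Tdg, Smug1, Ung, Mbd4, Neil1, Neil2 and Neil3, and the adaptors Gadd45a, Gadd45b and Gadd45g. Their methylation was read by bisulfite sequencing of whole genomes, in tissue of the hippocampal field CA1 from mice of the C57B6/J strain, aged 117 days. The deposited table gives a percent methylation per region and library. The members were taken as every region that the table names for one of the 10 genes (80 regions), plus regions on the same chromosome within 3 kb of the outermost of them. This gave 129 regions of 849172 in the whole table, and all 129 had a value in all 4 libraries. The control group, labelled Tet2+f, has 2 libraries and carries a floxed Tet2 allele without Cre, as read from the label. The other group, labelled Tet2+f_Camk2aCre, also has 2 libraries and carries the same allele with Cre under the Camk2a promoter, which is active in excitatory neurons of the forebrain. It is called the Cre group, and its values are given as those with Cre. Libraries of the first group are called controls below. The series text calls the mice haploinsufficient for Tet2 in glutamatergic CA1, so the question is whether these genes are methylated differently there. No group carries Cre alone, so reduced Tet2 and Cre itself cannot be told apart. The tissue holds other cells too, and a change in the mix of cells cannot be told apart from a change of methylation within them. Whether each library is a different mouse is not stated in the labels, so p-values measure the spread between libraries, which may be technical.

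TET enzymes oxidise 5-methylcytosine stepwise to hydroxymethyl-, formyl- and carboxylcytosine. Thymine DNA glycosylase, the product of Tdg, cuts out the formyl and carboxyl forms, and base excision repair then puts in an unmethylated cytosine. The other glycosylases remove uracil, mismatched thymine or oxidised bases, and the GADD45 proteins are stress-induced adaptors that bring repair factors to DNA. Gadd45b is known in the hippocampus as a gene induced by neuronal activity. Bisulfite sequencing reads methyl- and hydroxymethylcytosine alike, so each level below is the sum of both.

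The promoters of 5 members are shown because their levels span the range found at the gene starts, from almost no methylation to partial methylation. Each is the RefSeq sequence of GRCm38.p6, the assembly behind mm10, from 250 bases before to 50 bases after the gene start, read 5′ to 3′ on the gene's strand. The start used there can differ from the outermost start of the gene, from which distances below are counted. Capitals mark each CpG, the dinucleotide at which methylation is read.
Gadd45b (chr10:80929841-80930140, plus strand): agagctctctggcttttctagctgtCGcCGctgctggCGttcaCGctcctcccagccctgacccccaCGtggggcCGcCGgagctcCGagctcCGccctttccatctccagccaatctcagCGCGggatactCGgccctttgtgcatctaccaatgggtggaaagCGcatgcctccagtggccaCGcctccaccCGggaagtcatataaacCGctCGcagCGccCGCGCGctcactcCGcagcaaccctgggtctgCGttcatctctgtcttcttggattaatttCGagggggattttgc
Gadd45g (chr13:51846425-51846724, plus strand): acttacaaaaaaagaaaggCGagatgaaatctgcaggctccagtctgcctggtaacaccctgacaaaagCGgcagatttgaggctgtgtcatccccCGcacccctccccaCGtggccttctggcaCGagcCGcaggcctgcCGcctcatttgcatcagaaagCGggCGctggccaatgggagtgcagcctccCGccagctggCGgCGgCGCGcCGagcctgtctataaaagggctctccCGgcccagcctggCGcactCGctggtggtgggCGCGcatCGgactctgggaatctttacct
Tdg (chr10:82629588-82629887, plus strand): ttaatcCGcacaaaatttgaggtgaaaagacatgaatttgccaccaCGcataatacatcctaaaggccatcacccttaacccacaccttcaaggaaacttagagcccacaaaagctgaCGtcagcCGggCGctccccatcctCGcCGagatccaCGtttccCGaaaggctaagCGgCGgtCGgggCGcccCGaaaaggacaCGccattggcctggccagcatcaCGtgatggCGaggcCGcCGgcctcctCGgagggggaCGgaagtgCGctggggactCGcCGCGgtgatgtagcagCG
Neil3 (chr8:53639016-53639315, minus strand): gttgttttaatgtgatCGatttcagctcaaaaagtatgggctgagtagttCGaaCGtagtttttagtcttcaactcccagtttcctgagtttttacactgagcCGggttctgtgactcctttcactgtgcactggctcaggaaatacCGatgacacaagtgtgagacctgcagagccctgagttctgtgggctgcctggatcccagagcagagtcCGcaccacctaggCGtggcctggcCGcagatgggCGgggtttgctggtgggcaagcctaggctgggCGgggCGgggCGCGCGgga
Ung (chr5:114130185-114130484, plus strand): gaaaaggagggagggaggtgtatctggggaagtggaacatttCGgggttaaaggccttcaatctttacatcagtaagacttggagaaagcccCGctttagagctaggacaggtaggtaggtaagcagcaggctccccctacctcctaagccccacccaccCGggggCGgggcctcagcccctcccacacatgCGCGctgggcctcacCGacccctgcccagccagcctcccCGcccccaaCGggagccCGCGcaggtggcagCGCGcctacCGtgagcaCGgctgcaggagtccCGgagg

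A RefSeq promoter of this length was found for 9 of the 10 members, all but Neil2. All 9 held more CpGs than the median promoter: they had from 14 CpGs in Neil3 and Gadd45a to 26 in Tdg, against a median of 7 and quartiles of 3 and 20 over 32851 promoters. Tdg had more CpGs than 83.1% of promoters, Mbd4, with 25 CpGs, more than 81.6%, and Gadd45b, with 24 CpGs, more than 80.0%. Neil3 and Gadd45a had more than 63.7%. With Smug1, Ung and Neil1 they lay within the quartiles. Short motifs were searched on both strands. The cyclic AMP response element TGACGTCA, which holds a CpG, was found once in the Tdg promoter and in none of the other 8, and 1.79% of all promoters held it. The GC box GGGCGG was found 3 times in Neil3, 2 times in Ung and once in each of Smug1, Mbd4, Gadd45a and Gadd45b. It was in 35.7% of all promoters. The CCAAT box, CCAAT, was found 2 times in each of Mbd4 and Gadd45b and once in each of Tdg, Smug1, Gadd45a and Gadd45g. It was in 37.4% of all promoters. The AP-1 motif TGANTCA was in none of the 9 and in 7.81% of all promoters.

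Averaged over the bases of the printed window that regions cover, the level differed between these promoters. The Gadd45b window was at 0.148% and 0.1% in controls against 0.386% and 0.0469% with Cre. The Gadd45g window was at 0.346% and 0.0959% in controls against 0% and 0.405% with Cre. The Tdg window was at 0% and 0.672% in controls against 1.12% and 0.224% with Cre. All 3 were close to unmethylated, and their groups overlapped. The Neil3 window lay inside 1 region, at 13.0% and 14.7% in controls against 10.5% and 9.89% with Cre. The Ung window was at 43.0% and 35.0% in controls against 33.9% and 34.2% with Cre. Most of that window fell in a region of 866 bp that reaches upstream of the gene start, so its level is that of a longer stretch.

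**Figure D1:**
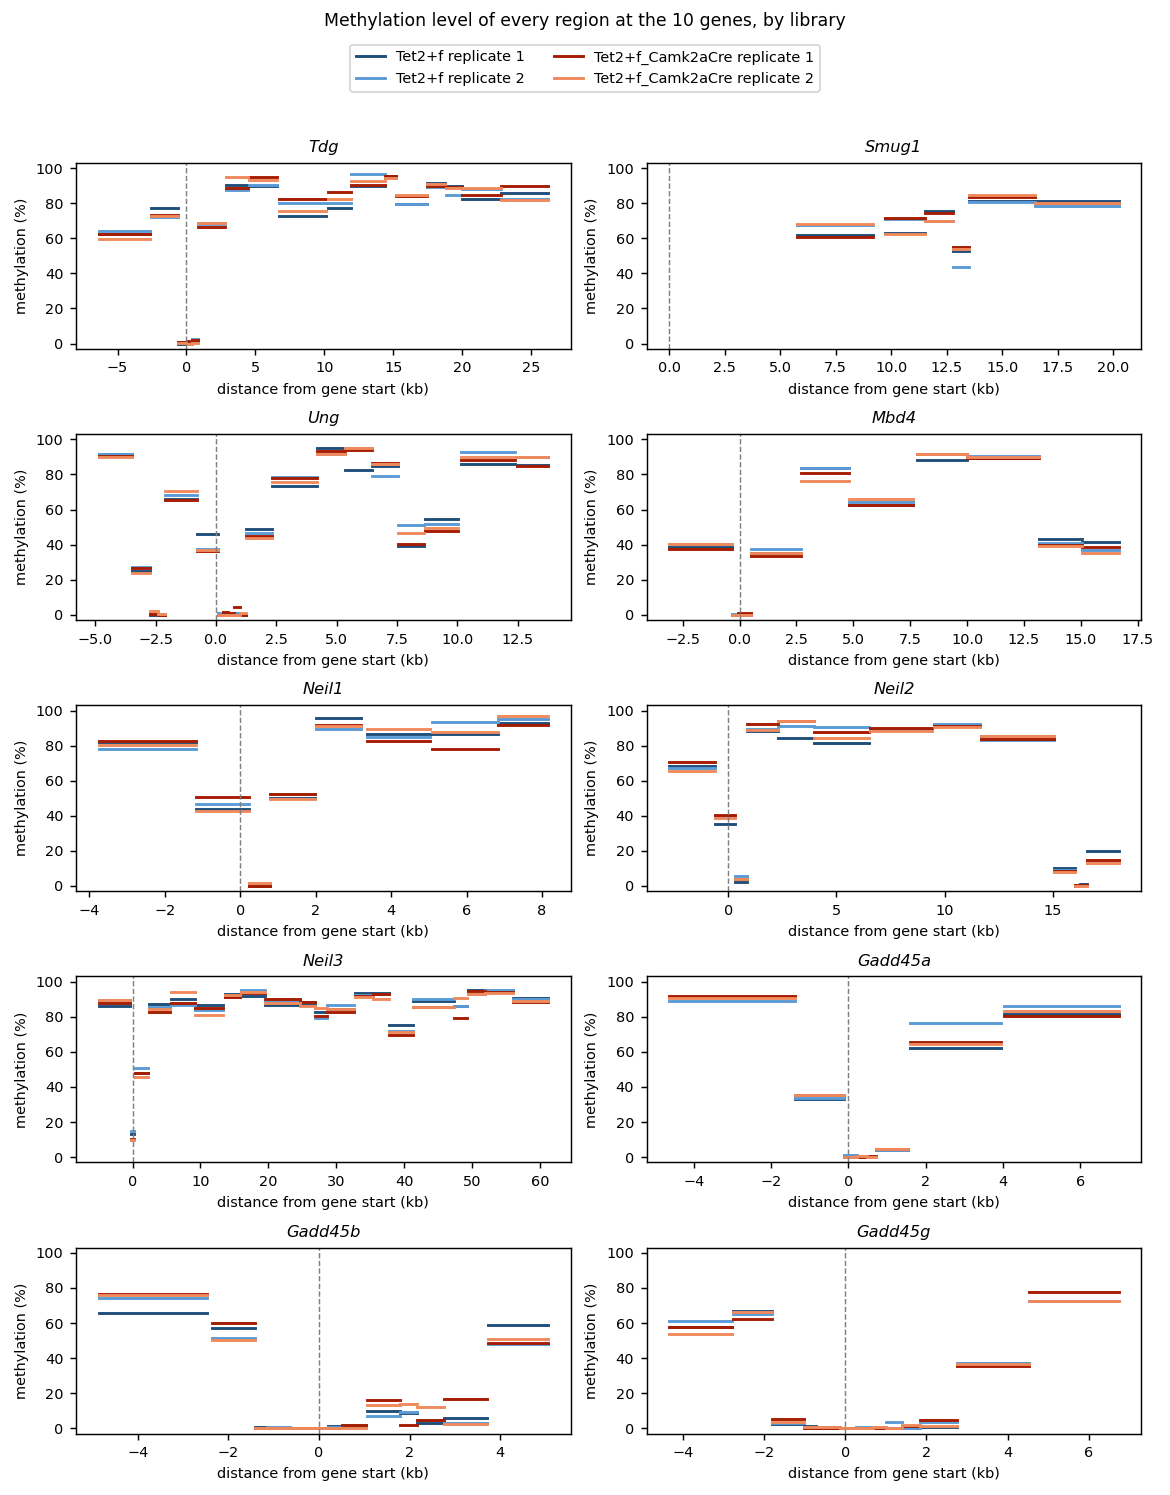
Methylation level in percent of each region at the 10 genes, against distance from the gene start in kb along the direction of transcription; each bar spans 1 region and each colour is 1 library. The level falls under 6% at or beside the start of every gene but Smug1, whose regions under the rule begin downstream of its start, and Neil3, where it stays above 9%.

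The low-methylated stretch at the gene start was longest in Gadd45g and Gadd45b. A stretch was taken as neighbouring regions that each averaged under 10% over the 4 libraries, reaching to within 500 bp of the gene start, with gaps of at most 500 bp. Of 19783 genes with a known strand, 54.2% had such a stretch, with a median of 1104 bp and quartiles of 696 and 1650 bp. In Gadd45g it ran over 4540 bp and 9 regions, longer than 98.4% of all stretches, and it covered the whole gene. In Gadd45b it ran over 2445 bp and 6 regions, longer than 90.7%, and ended inside the gene. Under a limit of 20% the Gadd45b stretch grew to 5104 bp and 10 regions, since 4 more regions, in the 3′ part of the gene and past its end, had means between 6.15% and 11.6%. That limit was chosen after the levels were seen. Gadd45a, a p53 target that halts the cell cycle, had 1655 bp, longer than 75.2% of stretches.

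The glycosylase genes had shorter stretches. Tdg had 1474 bp, Smug1 1440 bp and Ung 1157 bp, all within the quartiles over all genes. The Smug1 stretch lay at its outermost start, outside the regions of the rule. The region over the inner start, that of its RefSeq promoter, averaged 10.1% over the 4 libraries. Mbd4 had 872 bp, also within the quartiles. Neil1 and Neil2 had 553 bp each, shorter than the lower quartile. Neil3 had none under 10%, and under 20% it had a single region of 546 bp. Neil1, Neil2 and Neil3 thus had the least low-methylated sequence at their starts among the 10 genes.

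**Figure D2:**
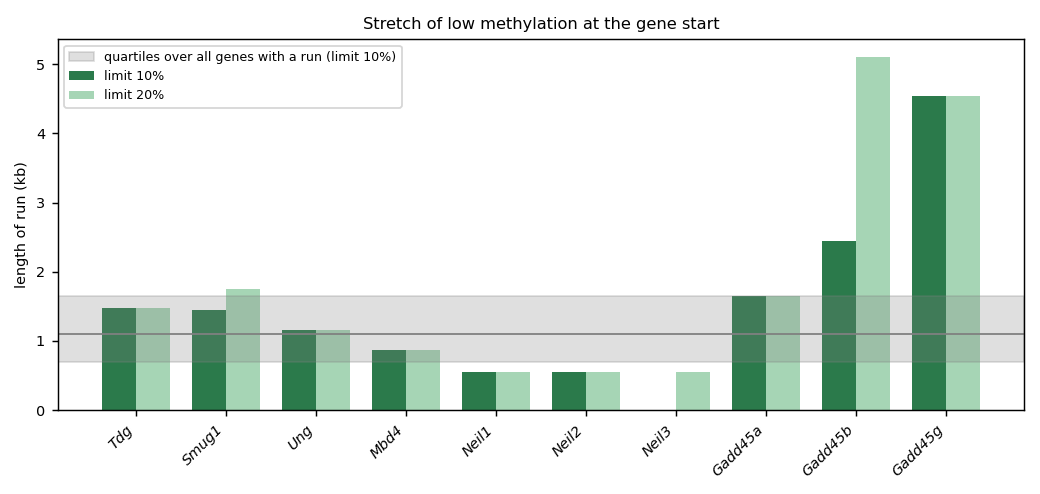
Length in kb of the low-methylated stretch at the gene start of each member, with region means under 10% (dark bars) or under 20% (light bars); the grey band gives the quartiles and the grey line the median over all genes with a stretch under 10%. Gadd45g and Gadd45b stand above the band, and Neil3 has no stretch under 10%.

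Over the whole promoter, that is 2000 bp before the gene start and 500 bp after it with regions counted whole, the order was Gadd45b, Gadd45g, Mbd4, Tdg, Smug1, Gadd45a, Ung, Neil2, Neil1 and Neil3, from low to high. Gadd45b was at 9.89% and 8.75% in controls against 10.2% and 8.44% with Cre. Gadd45g was at 12% and 11.4% in controls against 11.2% and 11.8% with Cre. At the other end, Neil3 was at 49.1% and 51.8% in controls against 48.8% and 48.3% with Cre. No library of Neil3 came near one of Gadd45b. Neil1 was at 42.0% and 42.1% in controls against 44.4% and 41.6% with Cre. Neil2 was at 35.4% and 37.5% in controls against 38.4% and 36.0% with Cre. Over this window the 3 NEIL promoters were thus the most methylated of the 10. The order depends on the window. In the RefSeq promoters of 300 bases, every library of Ung was above every library of Neil3 and Neil1. Neil1 was there at 15.7% and 17.6% in controls against 18.1% and 16.1% with Cre, and Neil2 had no such sequence. Tdg was at 15.7% and 15.3% in controls against 15.6% and 14.6% with Cre. Mbd4 was at 12.9% and 13.6% in controls against 12.7% and 13.4% with Cre. The groups overlapped in Neil1, Neil2, Tdg and Mbd4. Smug1 could not be placed beside Gadd45a or Ung, because its libraries spread from 21.1% to 27.4% and overlapped both. All other neighbours in this order were separate over the 4 libraries, the closest being Gadd45a, at 24.7% to 25.7%, and Ung, at 25.9% to 28.0%. Among all 19776 promoters, Gadd45b was higher than 5.84% and Neil3 higher than 56.9%.

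Over the whole locus, Neil3 and Smug1 lay above the mean over all gene loci, and the other 8 members lay below it. That mean was between 68.2% and 68.5% in the 4 libraries. Smug1 was still higher than only 41.7% of loci, and its 6 regions leave out both of its starts. The Neil3 locus, the mean of its 20 regions, was at 82.7% in both controls against 81.3% and 82.0% with Cre, higher than 80.1% of 26848 gene loci. The Gadd45b locus was at 16.3% and 15.4% in controls against 17.5% and 16.8% with Cre, higher than 1.1% of loci. The Gadd45g locus was at 18.5% and 19.1% in controls against 18.8% and 18.3% with Cre. Gadd45a, at 34.1% to 36.3%, stood above both. The stretch under 10% at the start made up 9 of the 13 regions of Gadd45g and 6 of the 13 of Gadd45b. In a locus mean each region counted the same, whatever its length. Over the whole table, regions under 10% had a median length of 296 bp, against 2589 bp for all regions. The locus levels and their ranks are thus not levels per base, and short low regions weigh heavily in them.

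**Figure D3:**
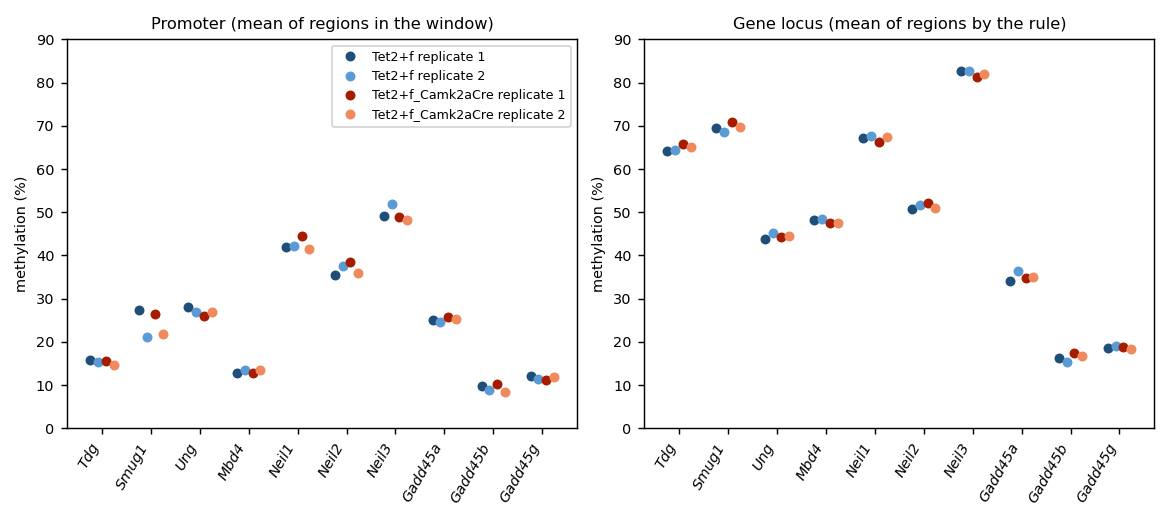
Methylation in percent of the promoter (left) and of the gene locus (right) of each member, with 1 point per library. The libraries of a gene lie close together beside the full range between genes, but some neighbouring genes lie about as close. Smug1 has the widest spread at its promoter, from 21.1% to 27.4%, and overlaps Gadd45a and Ung there.

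No region, promoter or locus of the 10 genes passed the test of the Cre group against the control group. With limma on logit-transformed levels, 0 of the 129 regions had an adjusted p under 0.05, where 0% of all 849014 regions passed, and the smallest adjusted p among the 129 was 0.937. Without adjustment, 7 of the 129 had a p under 0.05, as did 4.6% of all regions. Other tools were not run. The exact permutation test over the 6 arrangements of 4 libraries cannot reach 0.05, since the smallest p it can give is 0.33. Of the 129 regions, 61 had a higher and 68 a lower mean with Cre, where 49.2% of all regions were higher and 50.3% lower. The median difference was -0.1 points, against -0.0214 points over all regions. In 16 regions (12.4%) the Cre libraries both lay above the controls, against 15.9% of all regions. In 23 regions (17.8%) both lay below, against 16.8% of all regions. These shares are near those of the table as a whole.

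**Figure D4:**
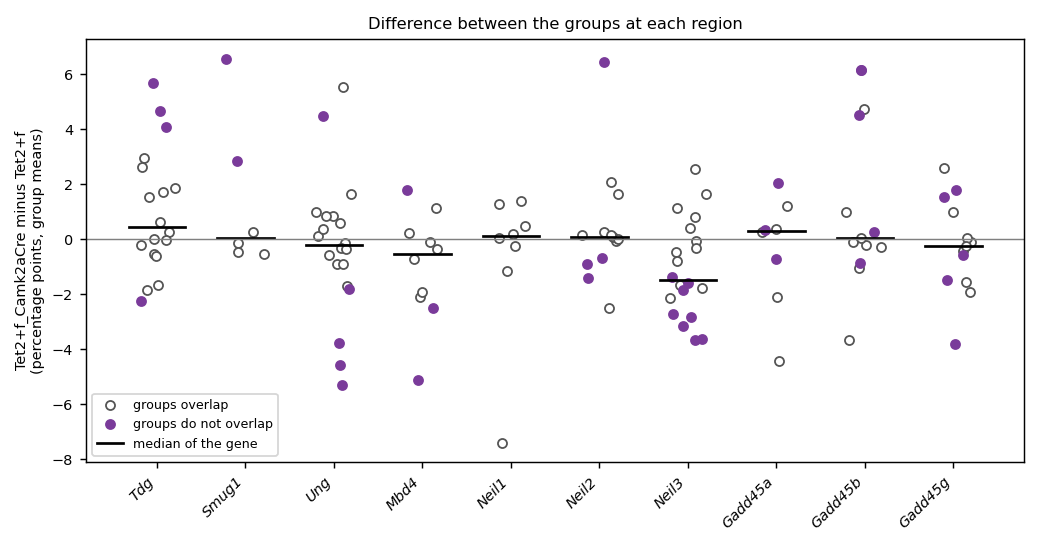
Difference in methylation between the groups, Cre minus control group means in percentage points, for each of the 129 regions by gene; filled points mark regions whose groups do not overlap and bars mark the median of each gene. Differences lie between -7.40 and 6.57 points. Of the 20 Neil3 regions, 8 are filled points below 0 and none are filled points above. Over the whole table, 16.8% of regions were lower and 15.9% higher without overlap. Neil3 was singled out after its values were seen.

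Among the glycosylases of the direct demethylation path, Tdg was at 0% to 2.68% beside its start and at 66.7% to 96.8% within the gene beyond 857 bp. Its locus averaged 64.3% ± 0.307 (SD, n = 2) in controls and 65.4% ± 0.504 (SD, n = 2) with Cre. The difference of 1.05 points did not pass (limma adjusted p = 0.966), although the groups did not overlap. Loci that were higher in the Cre group without overlap made up 17.2% of all loci. The largest separated difference lay inside the gene, 10247 bp from the start (chr10:82640061-82641717). It was at 77.1% and 80.1% in controls against 86.2% and 82.3% with Cre, a difference of 5.7 points (limma adjusted p = 0.937). A region 15233 bp from the start was at 79.5% and 79.7% in controls against 83.9% and 84.7% with Cre. One more region, 4507 bp from the start, was at 89.6% and 90.6% against 95.1% and 93.2%. In Tdg 3 of 18 regions (16.7%) were thus higher without overlap, near the 15.9% of all regions, and 1 was lower, against 16.8% of all regions. Without replicate 1 of the Cre group, the difference was 3.75 points at the region chr10:82640061-82641717 and 0.694 points at the locus.

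Smug1 encodes a glycosylase that removes uracil and hydroxymethyluracil from DNA. The table names 4 regions for it, all downstream of both starts that RefSeq gives. Its 6 regions averaged 69.0% ± 0.524 (SD, n = 2) in controls and 70.4% ± 0.842 (SD, n = 2) with Cre, a difference of 1.42 points (limma adjusted p = 0.957), or 0.83 points with Cre replicate 1 left out. The region chr15:103155415-103156159 was at 52.8% and 43.4% in controls against 55.3% and 53.9% with Cre. This is the largest difference upward among the 129 regions, 6.57 points, and replicate 2 of the control group alone was low: without it the difference was 1.86 points. The outer start of Smug1, at 103168939, lies in a region outside the rule, which was at 7.08% and 16.1% in controls against 5.30% and 6.14% with Cre (limma adjusted p = 0.937). The inner start lies in a region at 9.45% and 10.1% in controls against 9.31% and 11.4% with Cre. Both starts were thus at 16.1% or less in every library.

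Ung encodes the main uracil glycosylase, which keeps uracil out of DNA. After its start came 5 regions at 0% to 4.30% in every library. The region over the start itself (chr5:114129592-114130457) was at 46.3% and 37.6% in controls against 36.6% and 36.8% with Cre, a difference of -5.28 points (limma adjusted p = 0.937). Replicate 1 of the control group was the high library there, and without it the difference was -0.944 points. On the far side of the unmethylated stretch, the region chr5:114131622-114132698 was at 49.0% and 46.8% in controls against 44.7% and 43.5% with Cre. Both regions that flank the stretch were thus lower in the Cre libraries without overlap, and neither passed the test. In Ung 4 of 20 regions (20%) were lower without overlap, near the 16.8% of all regions. One region, or 5.0%, was higher without overlap, against 15.9% of all regions. The locus as a whole differed by -0.241 points (limma adjusted p = 0.998). The Ung promoter as a whole was at 28.0% and 27.0% in controls against 25.9% and 26.8% with Cre (limma adjusted p = 0.976). Its difference of -1.18 points became -0.674 when control replicate 1 was left out and -0.706 when Cre replicate 1 was. Upstream, 4 of the regions are named for the neighbouring gene Alkbh2, which encodes a DNA dealkylase.

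Mbd4 encodes a glycosylase with a methyl-CpG-binding domain that removes thymine left by deamination of 5-methylcytosine. The region over its start and the region upstream, which the table names for the neighbour Ift122, were at 0% to 0.725% in every library. The gene body stood between 33.5% and 91.9%. The largest separated difference, at chr6:115848576-115850693, ran from 83.8% and 83.5% in controls to 80.6% and 76.5% in the Cre libraries, or -5.1 points (limma adjusted p = 0.937). Leaving out Cre replicate 2 gave -3.09 points. The Mbd4 locus averaged 48.4% ± 0.182 (SD, n = 2) in controls and 47.4% ± 0.00225 (SD, n = 2) with Cre. It was lower without overlap, as were 16.4% of all loci, and did not pass (limma adjusted p = 0.974).

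The NEIL glycosylases remove oxidised bases, and Neil1 and Neil2 are known to help TDG off the site it has cut. In Neil1 the unmethylated region just inside the start was at 0% and 1.31% in controls against 0% and 1.42% with Cre, and the table names it for the overlapping Gm16493. The region over the start itself was at 44.0% and 46.9% in controls against 50.8% and 42.7% with Cre. None of the 8 Neil1 regions separated the groups, where 15.9% of all regions were higher and 16.8% lower without overlap. The largest difference of all 129 regions, -7.40 points, lay at chr9:57141851-57143590, named for the neighbour Man2c1, at 86.8% and 93.7% in controls against 78.0% and 87.7% with Cre. Those groups overlapped. Neil2 had the same layout: the region over its start was at 35.4% and 39.5% in controls against 40.5% and 38.5% with Cre, and the region just inside at 2.21% and 5.64% in controls against 4.06% and 4.09% with Cre. Counted from the outermost start, the lowest levels in both genes, as in Ung, thus lay inside the gene and not over the start. For Neil1 this depends on the start used. The start of its RefSeq promoter (chr9:57148256-57148555, minus strand) lies within the unmethylated region. For Neil2 no such promoter was found. Further into Neil2, the region chr14:63190191-63191849, 2305 bp into the gene, was at 84.4% and 91.1% in controls against 94.2% and 94.1% with Cre, a difference of 6.43 points (limma adjusted p = 0.937). Without replicate 1 of the control group it was 3.05 points. The lowest region listed for Neil2 under the rule lay past the gene end, beside Fdft1, at 0% and 0.4% in controls against 0.286% and 0% with Cre. The Neil2 locus differed by 0.409 points and the Neil1 locus by -0.669 points, and each had a limma adjusted p of 0.998. Without replicate 1 of the Cre group the Neil1 locus differed by -0.027 points.

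Neil3, whose product acts on single-stranded DNA and on crosslinks between strands and is mainly known from dividing cells, had no region with a mean under 10%. The region over the start (chr8:53638782-53639327), which holds the printed promoter whole, averaged 13.9% ± 1.21 (SD, n = 2) in controls and 10.2% ± 0.46 (SD, n = 2) with Cre. The difference of -3.66 points did not pass (limma adjusted p = 0.937). The next region into the gene was at 48.2% and 51.0% in controls against 48.0% and 45.6% with Cre. The region after it was at 87.4% and 85.8% in controls against 82.6% and 84.3% with Cre. From the start to 5590 bp into the gene, the Cre libraries were thus both below the controls in 3 neighbouring regions.

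Across Neil3, 15 of 20 regions (75%) were lower in the Cre group, where 50.3% of all regions were. In 8 of 20 (40%) both libraries with Cre lay below both controls, against 16.8% of all regions, and in none did both lie above. This gene was singled out after its values were seen, its regions are neighbours in the same 4 libraries, and whether it differs from other genes was not tested. The other separated regions lay far into the gene and past its end. The widest of these gaps, at chr8:53591718-53597824, was at 88.9% and 90% in controls against 85.8% in both Cre libraries. The Neil3 locus averaged 82.7% ± 0.0514 (SD, n = 2) in controls and 81.6% ± 0.499 (SD, n = 2) with Cre, a difference of -1.07 points (limma adjusted p = 0.934). The exact two-sided permutation test gave its smallest possible p, 0.33. Leaving out 1 library at a time kept the difference between -1.43 and -0.719 points, and 13 to 15 of the 20 regions lower.

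Among the Gadd45 genes, Gadd45a was at 0% to 1.07% over its start and the next 2 regions. The region over the start was at 0.4% and 1.07% in controls against 0% in both Cre libraries. The upstream region chr6:67037530-67038791, named for the divergent E230016M11Rik, was at 33.3% and 33.6% in controls against 35.6% and 35.3% with Cre. It was the largest separated difference of the gene, 2.05 points (limma adjusted p = 0.959). The 3′ region was at 62.4% and 76.5% in controls against 65.5% and 64.5% with Cre, so replicate 2 of the control group stood alone. The Gadd45a locus differed by -0.37 points, which turned to 0.699 points without that library.

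In Gadd45b the 6 regions of the low stretch were at 0% to 2.0% in every library. The region in the 3′ part of the gene (chr10:80931149-80931878) averaged 8.51% ± 1.76 (SD, n = 2) in controls and 14.7% ± 2.1 (SD, n = 2) with Cre. Its libraries were at 9.76% and 7.27% against 16.2% and 13.2%, a difference of 6.17 points with no overlap (limma adjusted p = 0.937). The next region was at 8.76% and 9.03% in controls against 2.09% and 13.6% with Cre, so the Cre libraries lay on either side. The region past the gene end was at 3.17% and 4.63% in controls against 4.75% and 12.1% with Cre. The one after it was at 6.08% and 3.22% in controls against 16.5% and 2.29% with Cre. In these 4 regions the higher Cre library was replicate 1 in the first and last and replicate 2 in the others. The Gadd45b locus differed by 1.29 points (limma adjusted p = 0.93), with no overlap, and by 0.833 to 1.74 points with 1 library left out.

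Gadd45g had the longest low-methylated stretch of the 10 genes. Its 9 regions ranged from 0% to 5.23% in all 4 libraries. The 3′ region of the gene was at 0% in both controls against 1.06% and 2.0% with Cre. With an unadjusted p of 0.00426 from limma it had the smallest p of the 129 regions, and its adjusted p was 0.937. The table gives no read counts, so how many reads carry such a level is unknown. Another region, 267 bp from the start, differed the other way, at 0.439% and 0.709% in controls against 0% in both libraries with Cre. The largest separated difference was upstream (chr13:51842344-51843884), at 57.9% and 61% in controls against 57.6% and 53.7% with Cre, or -3.82 points (limma adjusted p = 0.941). Leaving out Cre replicate 1 gave -5.8 points, Cre replicate 2 gave -1.84 points and control replicate 2 gave -2.23 points. The locus differed by -0.245 points (limma adjusted p = 0.998).

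Of the 10 loci, 4 had a higher and 6 a lower mean with Cre, where 51.1% of all loci were higher and 48.9% lower. Tdg, Smug1 and Gadd45b were higher without overlap, 3 of 10 where 17.2% of all loci were, and Mbd4 and Neil3 lower, 2 of 10 where 16.4% were. Their differences ran from -1.07 to 1.42 points. Of the 10 promoters, 4 were higher and 6 lower, where 50.8% of all promoters were higher and 49.2% lower. Gadd45a was higher without overlap, as were 17% of all promoters, and Ung and Neil3 lower, as were 16.7%. The Gadd45a promoter was at 25% and 24.7% in controls against 25.7% and 25.3% with Cre. The promoter differences ran from -1.89 points in Neil3 to 0.917 points in Neil1, and the smallest limma adjusted p was 0.971. The Neil3 value became -0.566 points when control replicate 2 was left out, -3.22 points when control replicate 1 was, and -0.522 points with regions weighted by their bases in the window. No locus and no promoter passed in the table as a whole either (0% of each), while 5.63% of loci and 5.07% of promoters had an unadjusted p under 0.05. None of the 10 loci or promoters did.

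A wider list of 28 base excision repair and demethylation genes, from the TET enzymes to ligases and deaminases, was set beside the members, and 26 of them were measured. Over promoters 16 of the 26 had a higher and 10 a lower mean with Cre, where 50.8% of all promoters were higher and 49.2% lower. With limma 0 passed and 1 had an unadjusted p under 0.05, as did 5.07% of all promoters. The median difference was 0.384 points, against 0.026 points over all promoters. Apobec3, a cytidine deaminase of antiviral defence, had its promoter at 44.8% and 46.3% in controls against 49.5% and 50.2% with Cre (limma adjusted p = 0.961). The Tet2 promoter was at 8.5% and 6.2% in controls against 18.2% and 5.68% with Cre, so 1 library made the difference of 4.6 points. The most negative differences were those of Parp2 and Xrcc1, a strand-break sensor and a repair scaffold, at -1.68 and -1.44 points, both with overlapping groups. Over loci 16 of 26 were higher and 10 lower, where 51.1% of all loci were higher and 48.9% lower. Of these 26 loci 0 passed with limma and 1 had an unadjusted p under 0.05, as did 5.63% of all loci. Their median difference was 0.179 points, against 0.0214 points over all loci.

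As a check of the tissue label, promoters of cell type markers were read in the same way. The 6 glutamatergic markers had medians of 24.2% to 27.2% over the 4 libraries and the 4 interneuron markers of 27.0% to 29.3%. The 3 measured microglial markers had medians of 79.5% to 82.2%. Medians of astrocyte, oligodendrocyte and endothelial markers lay between, at 54.6% to 72.6%. Single markers overlapped between types. Averaged over libraries, they ran from 14.0% to 48.2% for glutamatergic, 13.9% to 86.4% for interneuron and 77.0% to 81.6% for microglial markers. The ranges were 32.9% to 82.7% for astrocyte, 35.6% to 85.2% for oligodendrocyte and 20.8% to 85.8% for endothelial markers. Methylation of a marker does not count its cells. At regions under 10% over the whole table, replicate 1 of the Cre group averaged 1.81%, against 1.6% to 1.64% in the other libraries. Over the 40 member regions under 10%, the libraries averaged 1.15% and 1.56% in the control group and 1.71% and 1.49% in the Cre group. The part of this in the low-level differences of the Gadd45 genes was not tested.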

How the data were processed

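The authors deposited 1 percent methylation value for each region in each library. Read counts are not used here, so depth is unknown and no counting interval is given. The submitters' processing notes name mm10 as the build and, among tools, Bismark 0.19.0 and Trim Galore 0.4.5. The way regions were drawn, and any minimum of coverage, is not given in the sources used here.

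Libraries were grouped by title. Regions without all 4 values, 158 of them, were dropped. Each level, as a proportion, was transformed to log2((level + 0.01) / (1 - level + 0.01)). Groups were compared with limma 3.58.1 in R 4.3.3, with Benjamini-Hochberg adjustment at 0.05 over all regions, all loci or all promoters, never over the members alone. A locus was formed for every gene by the members' rule, as the plain mean of its regions. Gene starts came from a RefSeq table of GRCm38.p6 and strands from the deposited table. The script was tested on simulated promoters with a planted change far larger than any difference at the members. That test does not show whether changes of the size seen here would be found.

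Members and gene lists were chosen with earlier results of these data known. The rule for named genes took all 10 members, each with its locus, promoter, lowest region and the largest difference without overlap, and from the wider list any gene past the threshold or else the 2 promoters with the largest difference in each direction. Other regions were named after their values were seen. Alternatives were a replicate block, other scales, offsets, priors, windows and weights, centring, and leaving out each library.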

Additional observations from a re-analysis of the deposited data

How the results depend on the processing

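No member region, locus or promoter passed the threshold under any of the 10 alternatives for regions, 12 for loci and 11 for promoters. Among all promoters, 1 passed with a trended and robust prior, that of Camk2a, which is also the promoter that drives Cre in the Cre group. It was 37.7 points higher with Cre (limma adjusted p = 0.00125 under that prior), and the cause was not tested. The member regions at an unadjusted p under 0.05, 7 in all, became 2 on the percent scale, 3 with an offset of 0.05 and 4 with a trended and robust prior, and 6 to 10 without 1 library; the cause was not tested. With the replicate number as a block, 0 member regions, 0 loci and 0 promoters passed; replicate differences of the groups correlated at 0.00648, which gave no sign of pairing.

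Of 320 differences of named loci, promoters and regions under other settings, 0 passed and 20 turned direction, 18 of them with a library left out. The loci that turned ranged from -0.944 to 0.462 points for Ung, -0.268 to 1.09 for Neil2, -1.44 to 0.699 for Gadd45a and -0.543 to 0.0534 for Gadd45g. The promoters that turned ranged from -0.815 to 0.118 points for Tdg, -3.33 to 3.0 for Smug1, -0.532 to 0.128 for Mbd4, -0.505 to 2.34 for Neil1, -0.435 to 2.03 for Neil2, -0.875 to 0.918 for Gadd45b and -0.503 to 0.105 for Gadd45g. The Gadd45b promoter was at -0.167 points with 1000 bp upstream, and the Gadd45g promoter at 0.294 points with regions weighted by their bases in the window. Without 1 library, the lone one of its group is assumed to vary like the others.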
